A study of Homo sapiens with 8 samples.

Results

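Transforming growth factor beta (TGF-beta), activins and bone morphogenetic proteins (BMPs) are secreted ligands that signal through paired serine/threonine kinase receptors. A fixed list of 46 genes of this pathway was read from the deposited table of 23346 genes by symbol, and all 46 were found. The RNA came from hCMEC/D3 cells, a human brain capillary endothelial line made to divide indefinitely and grown in vitro to study the blood-brain barrier. The 8 polyadenylated-RNA libraries are replicates of this line and form 1 group, with no treatment, time course or control. The labels give neither passage nor medium, and nothing states whether the replicates were separate cultures, so the spread between them may be technical.

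In this pathway a type II receptor phosphorylates a type I receptor, which activates SMAD proteins. TGF-beta and activin act mainly through SMAD2 and SMAD3, and BMPs through SMAD1, SMAD5 and SMAD9, and both branches use SMAD4 as a common partner. In endothelial cells the type I receptor ACVRL1 and the co-receptor endoglin (ENG) also carry BMP signals, and loss of either gene causes hereditary haemorrhagic telangiectasia, a disease of malformed vessels. The inhibitory SMADs, the ID genes and SKIL are transcribed in response to the pathway, the first and last of these as feedback brakes.

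Total counts ranged from 69388544 to 90205244 per library. Every count was even, so counts were divided by 2, on the assumption that both reads of a pair had been counted. The values so obtained, here called read pairs, ranged from 34694272 to 45102622. All 12 endothelial markers examined were at or above 1 CPM (read pairs scaled to a common library size by TMM) in all 8 libraries, with a summed level of 3309 to 5365 CPM. Of 12 mural and fibroblast markers 5 reached this level (PDGFRB, RGS5, ACTA2, COL1A1 and COL1A2), with a sum of 170 to 242 CPM. COL1A2 alone had 110 to 179 CPM, and DCN, LUM and KCNJ8 were near 0. Of 10 glial, neuronal and microglial markers only SYT1 reached 1 CPM in all 8 libraries, with a sum of 3.26 to 7.13 CPM. Replicates 2 and 8, and less so 7, stood apart in that their values fell with transcript length. The slopes per doubling of length were -0.215, -0.325 and -0.101 on the log2 scale in replicates 2, 8 and 7, against 0.0816 to 0.142 in the others.

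The promoters of ID1, ID2, ID3, SMAD7 and SKIL are shown because these are the members of the preset pairs whose normalised values moved together between libraries. Each line gives the 250 bases before the annotated start in RefSeq (GRCh38.p14), 5′ to 3′ on the gene's strand. For SMAD7 the most upstream of 3 listed starts was taken. Capitals mark any match, on either strand, to GGCGCC (a GC-rich sequence bound by BMP SMADs), CAGAC (the core of the SMAD-binding element, GTCTG on the other strand) or TATAAA.
ID1 chr20:31605039-31605288 (+): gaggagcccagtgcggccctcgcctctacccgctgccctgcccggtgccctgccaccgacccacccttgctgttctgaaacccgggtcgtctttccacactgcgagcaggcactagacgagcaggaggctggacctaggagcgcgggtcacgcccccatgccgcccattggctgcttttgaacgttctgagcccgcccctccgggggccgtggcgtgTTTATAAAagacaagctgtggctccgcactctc
ID2 chr2:8681806-8682055 (+): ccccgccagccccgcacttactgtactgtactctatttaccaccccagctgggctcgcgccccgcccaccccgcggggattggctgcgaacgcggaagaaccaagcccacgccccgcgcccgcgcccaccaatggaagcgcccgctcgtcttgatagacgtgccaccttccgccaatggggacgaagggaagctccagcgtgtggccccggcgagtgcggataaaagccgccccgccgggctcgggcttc
ID3 chr1:23559502-23559751 (-): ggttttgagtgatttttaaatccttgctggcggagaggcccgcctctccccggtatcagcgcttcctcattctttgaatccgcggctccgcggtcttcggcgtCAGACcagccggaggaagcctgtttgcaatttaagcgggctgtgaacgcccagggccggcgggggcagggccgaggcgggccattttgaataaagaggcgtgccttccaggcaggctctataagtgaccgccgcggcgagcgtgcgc
SMAD7 chr18:48950966-48951215 (-): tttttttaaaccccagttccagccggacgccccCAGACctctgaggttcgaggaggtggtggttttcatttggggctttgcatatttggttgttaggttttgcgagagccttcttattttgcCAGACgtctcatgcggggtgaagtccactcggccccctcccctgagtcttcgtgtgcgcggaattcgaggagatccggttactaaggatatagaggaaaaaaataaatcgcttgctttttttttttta
SKIL chr3:170357465-170357714 (+): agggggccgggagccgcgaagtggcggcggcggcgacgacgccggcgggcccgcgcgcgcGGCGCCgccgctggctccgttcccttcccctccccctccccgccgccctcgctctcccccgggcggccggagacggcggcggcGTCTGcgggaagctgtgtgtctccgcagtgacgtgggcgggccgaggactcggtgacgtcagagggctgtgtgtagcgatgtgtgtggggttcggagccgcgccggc
ID1 held the sequence TATAAA on both strands in overlapping matches that begin at -33 and -31 from the start. ID3 held CAGAC at -147, SMAD7 held it at -217 and -128, and SKIL held it at -107 and GGCGCC at -190. ID2 held none of these letters in this window. Among 27326 RefSeq windows of the same length, 37.9% held CAGAC, 16% held GGCGCC and 11.2% held TATAAA. Of the 42 members with a window in the RefSeq table, 14 held CAGAC and 14 held GGCGCC. These matches describe letters only.

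Of the 46 members, 40 (87.0%) were at or above 1 CPM in all 8 libraries, here called detected. Over all listed genes the share was 51.3%. The members not detected were the ligands BMP2 and INHBB, the receptor BMPR1B, the BMP-binding proteins BMPER and NOG, and the target ID4. BMPR1B and BMPER each had 0 counts in 3 libraries and ID4 in 2, where 3 read pairs would give 0.0665 to 0.088 CPM. BMP2 ranged from 0.0293 to 0.17 CPM and INHBB from 0.0222 to 0.183 CPM, so both were close to that limit. NOG differed from these, since it was above 1 CPM in 6 libraries and below it in replicates 1 and 8.

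Levels were compared between genes as RPKM, that is CPM per kilobase of the canonical GENCODE transcript. The median over detected members was 12.9 RPKM, beside 11.4 over all detected genes. ID3 led at 272 ± 79.3 RPKM (SD, n = 8), followed by ENG at 234 ± 88.4, ID1 at 226 ± 93.1, TGFBI at 135 ± 24.2 and TGFBR2 at 127 ± 25.1. BMP6 (71.0 ± 8.45), ACVRL1 (55.6 ± 10.3) and TGFB1 (48.6 ± 15.2) came next. In this order 40 of the 45 neighbouring pairs differed by less than the larger of their SDs. The steps that exceeded it lay between TGFBR2 and BMP6, BMP6 and ACVRL1, GREM1 and NOG, TGFB3 and ACVR2A, and ACVR2A and BMP2.

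**Figure D1:**
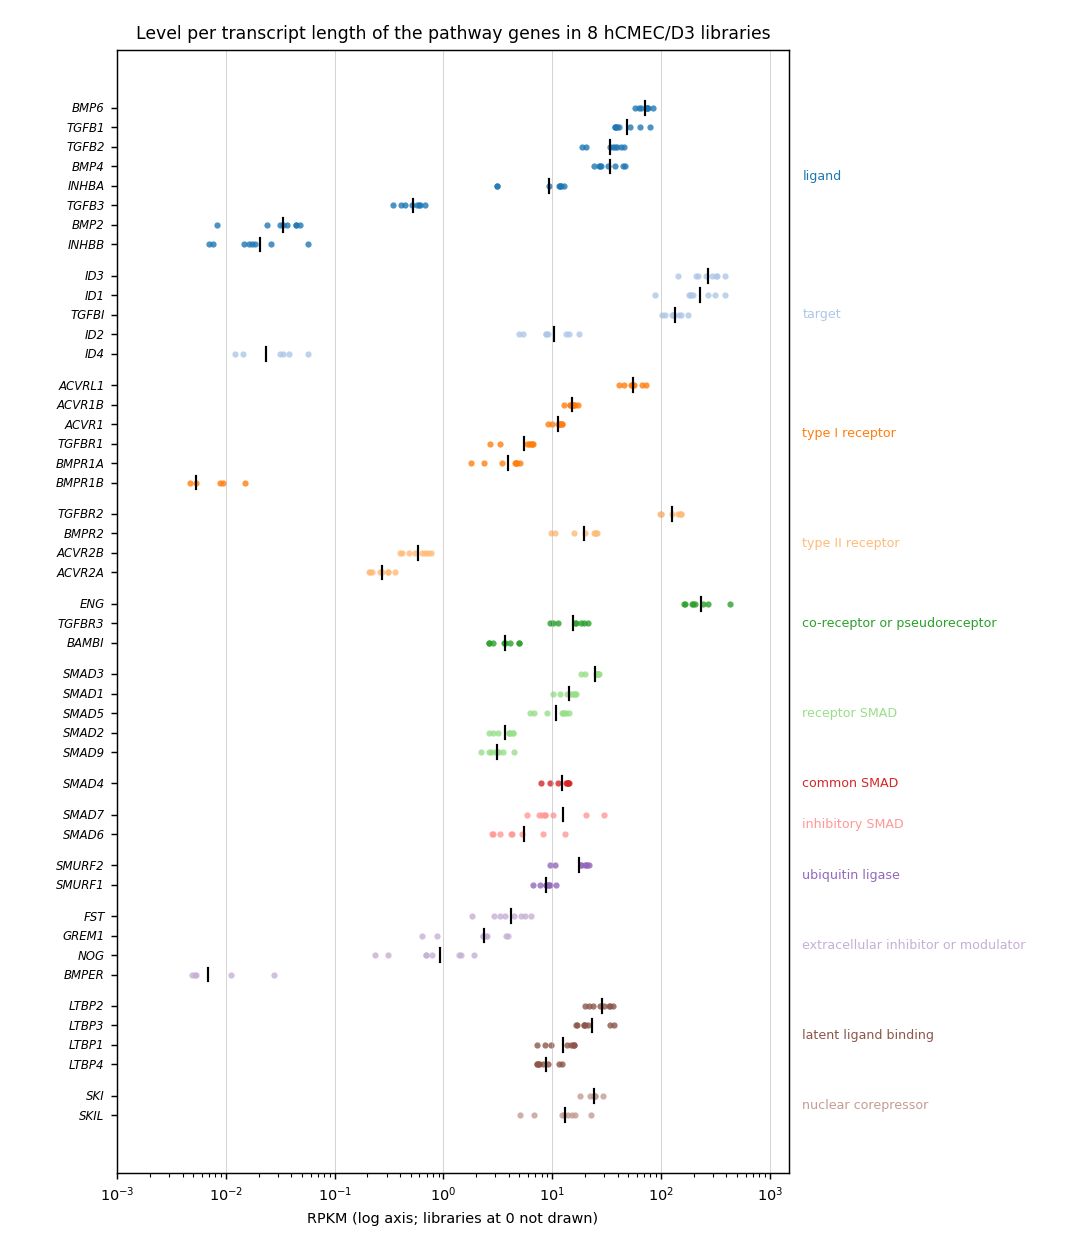
Level of each of the 46 genes in RPKM (log axis), grouped by role; each point is 1 of the 8 libraries and the black bar is the mean. ID3, ENG and ID1 have the highest means (272, 234 and 226 RPKM), whereas BMP2, ID4, INHBB, BMPER and BMPR1B lie below 0.1 RPKM.

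Among the ligands, BMP6, TGFB1, TGFB2 and BMP4 were the highest, activin subunit INHBA was intermediate, and TGFB3, BMP2 and INHBB were low. BMP6, a ligand of the BMP branch that endothelial cells of the liver use to control iron, had 318, 279, 249, 280, 217, 282, 238 and 286 CPM in replicates 1 to 8. Its values spanned 1.46-fold, a narrow range among the members, although its locus (chromosome 6, 7727011 to 7881961, plus strand, GRCh37) overlaps TXNDC5 in the table. BMP4 had 73.6, 87.2, 52.6, 63.3, 52.2, 54.6, 46.9 and 89.8 CPM, highest in replicates 8 and 2. Per length BMP6 exceeded BMP4 in 8 of 8 libraries, with a log2 ratio of 1.1 ± 0.27 (SD, n = 8; two-sided exact permutation of signs, p = 0.00781, adjusted p = 0.00955). For 8 libraries 0.00781 is the smallest p this test can give, and adjustment was over 22 preset pairs. BMP4 was also above BMP2 in 8 of 8 libraries (exact permutation p = 0.00781, adjusted p = 0.00955), at 46.9 to 89.8 CPM against 0.17 CPM or less.

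TGFB1 had 108, 177, 104, 110, 104, 114, 145 and 219 CPM, and TGFB2 had 268, 119, 212, 220, 252, 232, 199 and 110 CPM. In CPM the isoforms went opposite ways in replicates 2 and 8, where TGFB1 was highest and TGFB2 lowest. Per length TGFB1 was above TGFB2 in 6 of 8 libraries, and the log2 ratio of 0.51 ± 0.88 did not pass the test (exact permutation p = 0.188, adjusted p = 0.188, n = 8). On the values the authors had adjusted for length and GC content by conditional quantile normalisation (CQN), the ratio was 1.12 ± 0.21 and positive in 8 of 8 libraries (exact permutation, adjusted p = 0.00919, n = 8). TGFB1 did not rise in replicates 2 and 8 on CQN values, at 8.52 and 8.67 against a mean of 8.69. TGFB2 stayed lowest there, at 7.32 and 7.31. With no length the ratio was -0.56 (adjusted p = 0.131), and without replicates 2 and 8 it was 0.07 (adjusted p = 0.75, n = 6), so its direction was not settled by these scales (exact permutation). The canonical transcripts have 2780 and 5868 nt. TGFB3, the third isoform, had 2.02, 2.1, 1.39, 2.34, 1.53, 1.96, 1.17 and 1.77 CPM. It lay below TGFB1 by a log2 ratio of 6.44 ± 0.51 in 8 of 8 libraries (exact permutation, adjusted p = 0.00955, n = 8).

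INHBA encodes the subunit of activin A and lies at chromosome 7, 41728601 to 41742706, minus strand. It had 69.2, 18.8, 72.4, 77.6, 71.1, 71.9, 55.9 and 18.9 CPM in replicates 1 to 8. Replicates 2 and 8 were thus far below the other 6, which lay between 55.9 and 77.6 CPM. INHBA exceeded follistatin (FST), a secreted antagonist, per length in 8 of 8 libraries, by 1.07 ± 0.60 on the log2 scale (exact permutation, adjusted p = 0.00955, n = 8). This ratio was 0.08 in replicate 8, and it was 2.45 ± 0.58 on the CQN values, which also had the same sign in 8 of 8 libraries. INHBA was above INHBB in 8 of 8 libraries (exact permutation, adjusted p = 0.00955, n = 8).

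The latent TGF-beta binding proteins, which tether latent TGF-beta to the matrix, were all detected. LTBP2, the family member not known to bind latent TGF-beta, had the highest mean at 28.4 ± 6.06 RPKM, and LTBP3, LTBP1 and LTBP4 had 23.1 ± 7.78, 12.7 ± 3.53 and 8.84 ± 2.00 RPKM (SD, n = 8). The order of LTBP2 and LTBP3 was not tested, and their means on CQN values were 7.71 and 7.69. LTBP3 had 95.5, 163, 81.3, 96.7, 80, 93.9, 104 and 178 CPM and LTBP1 had 101, 55.6, 103, 97.4, 88.4, 102, 63.6 and 47.6 CPM, so in replicates 2 and 8 the first was highest and the second lowest. The log2 ratio of LTBP3 to LTBP1 was 0.86 ± 0.86 and positive in 8 of 8 libraries (exact permutation, adjusted p = 0.00955, n = 8). It became -0.22 (adjusted p = 0.475) when all annotated exons were counted as length and 0.43 (adjusted p = 0.25) with no length. LTBP2 had 307, 186, 255, 289, 234, 281, 202 and 168 CPM and LTBP4 had 36.2, 61.5, 35.7, 40.5, 37.5, 37.8, 45 and 56.7 CPM, again lowest and highest in replicates 2 and 8 respectively. LTBP2 exceeded LTBP4 by 1.68 ± 0.60 in 8 of 8 libraries (exact permutation, adjusted p = 0.00955, n = 8).

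The secreted inhibitors among the members were low. FST had 4.17 ± 1.52 RPKM, the BMP antagonist GREM1 2.36 ± 1.18 RPKM and the BMP antagonist NOG 0.931 ± 0.589 RPKM (SD, n = 8). This does not extend to all extracellular regulators outside the members. Of these, TWSG1 (33.1 ± 7.7 RPKM) and FSTL3 (24.1 ± 6.62) were higher, whereas NBL1 (1.36 ± 0.364) and CHRD (0.237 ± 0.0411) were also low. GREM1 (chromosome 15, 33010205 to 33026870, plus strand) had 33.7, 9.26, 36.6, 34, 57.5, 35.6, 55.4 and 12.7 CPM, with replicates 2 and 8 lowest and 5 and 7 highest. Its canonical transcript has 14575 nt in 2 exons, so its RPKM depends on that annotation. NOG, a single-exon gene, had 0.587, 1.51, 1.31, 1.32, 2.75, 3.64, 2.68 and 0.449 CPM, highest in replicate 6 and lowest in 8 and 1. FST, which traps activins, had 7.66, 4.21, 11.9, 10.2, 12.8, 8.37, 14.8 and 6.74 CPM, lowest in replicate 2 and highest in replicate 7.

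The type II receptors differed widely in level. TGFBR2, which binds TGF-beta, had 687, 442, 656, 674, 568, 689, 450 and 451 CPM (chromosome 3, 30647994 to 30735633, plus strand). BMPR2, the main type II receptor for BMPs and a gene mutated in familial pulmonary hypertension, had 309, 116, 303, 294, 244, 296, 192 and 128 CPM. Both were lowest in replicates 2, 7 and 8 in CPM, whereas on CQN values BMPR2 was highest in replicate 8, at 7.54. The activin receptor ACVR2B had 7.92, 4.94, 8.46, 7.54, 6.4, 9.07, 5.63 and 4.73 CPM and ACVR2A had 1.61, 1.37, 1.62, 1.1, 1.09, 1.88, 1.41 and 1.16 CPM, both far below. Per length BMPR2 was above ACVR2A by a log2 ratio of 6.01 ± 0.54, and ACVR2A was below ACVR2B by -1.01 ± 0.30, each in 8 of 8 libraries (exact permutation, adjusted p = 0.00955, n = 8). ACVR2A overlaps ORC4 in the table, and how shared reads were assigned is not given in the sources used here.

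Among type I receptors ACVRL1 was the highest, with 221, 278, 192, 224, 170, 236, 231 and 305 CPM (chromosome 12, 52301202 to 52317145, plus strand). ACVR1B, ACVR1, TGFBR1 and BMPR1A followed at 15.2 ± 1.30, 11.3 ± 1.12, 5.48 ± 1.57 and 3.89 ± 1.23 RPKM (SD, n = 8). TGFBR1, the type I receptor that partners TGFBR2, had 43.3, 21.5, 40, 40.2, 42.4, 42, 38.2 and 17.4 CPM. It lay below TGFBR2 by a log2 ratio of 4.58 ± 0.35, below ACVRL1 by 3.38 ± 0.75 and below ACVR1B by 1.53 ± 0.41, each in 8 of 8 libraries (exact permutation, adjusted p = 0.00955, n = 8). ACVR1B, an activin type I receptor, had 77.5, 65.5, 70.2, 70.2, 71.7, 66.1, 72.7 and 57.8 CPM. ACVR1 had 41.3, 30.7, 39.6, 39.3, 38.7, 40.7, 38 and 33.4 CPM and BMPR1A had 32.2, 15, 30.4, 29.2, 29.5, 29.8, 22.1 and 11.4 CPM, the latter lowest in replicates 8 and 2. BMPR1A lay below ACVR1, another BMP type I receptor, by -1.61 ± 0.43 (exact permutation, adjusted p = 0.00955, n = 8). ACVR1 and ACVR1B hardly varied, with CQN SDs of 0.07 and 0.10.

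Of the co-receptors, ENG had 578, 804, 488, 566, 484, 606, 716 and 1275 CPM in replicates 1 to 8 (chromosome 9, 130577291 to 130617047, minus strand). Replicate 8 was the highest, and the next was replicate 2. On CQN values ENG spanned only 9.98 to 10.49, with replicate 8 still highest. TGFBR3 (betaglycan), which presents TGF-beta to TGFBR2, had 136, 60.4, 104, 118, 103, 125, 70.9 and 65 CPM, and it was lowest in replicates 2 and 8. ENG exceeded TGFBR3 per length by a log2 ratio of 3.91 ± 0.85 in 8 of 8 libraries (exact permutation, adjusted p = 0.00955, n = 8), and by 3.70 ± 0.16 on CQN values. BAMBI, a pseudoreceptor that lacks a kinase domain, had 4.4, 6.98, 4.43, 4.82, 6.25, 6.13, 8.3 and 8.37 CPM, highest in replicates 8 and 7.

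The SMAD transducers of both branches were detected. SMAD3 had 175, 130, 167, 172, 171, 169, 165 and 118 CPM and was the highest per length at 24.5 ± 3.34 RPKM (SD, n = 8). SMAD1 had 49.9, 47.9, 45.4, 43.6, 35.5, 48.6, 30.8 and 40.9 CPM and SMAD5 had 94.8, 47.2, 99, 87.7, 85.4, 90.6, 62.6 and 43.9 CPM. The common partner SMAD4 had 126, 83.6, 123, 122, 116, 120, 98.6 and 69.3 CPM, lowest like SMAD5 in replicate 8. On CQN values, in contrast, SMAD4 was highest in replicates 2 and 8, at 6.70 and 6.63. SMAD1, SMAD4 and SMAD5 had 14.3 ± 2.25, 12.2 ± 2.40 and 10.9 ± 3.13 RPKM, and SMAD9 had 3.11 ± 0.682 RPKM. SMAD2 had 150, 98.6, 152, 139, 138, 141, 110 and 90.3 CPM, or 3.68 ± 0.697 RPKM, a value that rests on a canonical transcript of 34626 nt. SMAD3 exceeded SMAD2 in 8 of 8 libraries on either scale, but by a log2 ratio of 2.75 ± 0.14 per that length and by 0.71 ± 0.30 on CQN values (exact permutation, adjusted p = 0.00955 and 0.00919, n = 8). The order of SMAD5 and SMAD1 was not settled. The log2 ratio of SMAD5 to SMAD1 was -0.43 ± 0.48 per length, negative in 7 of 8 libraries (exact permutation p = 0.0156, adjusted p = 0.0181, n = 8), 0.03 ± 0.27 on CQN values (adjusted p = 0.828) and -0.18 without replicates 2 and 8 (adjusted p = 0.0655).

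SMURF2 and SMURF1 encode ubiquitin ligases that mark SMADs and receptors for degradation. SMURF2 had 116, 65.6, 131, 114, 128, 135, 124 and 59.8 CPM and SMURF1 had 52.9, 43.6, 52.2, 49.9, 60.8, 50, 54.5 and 37.9 CPM, both lowest in replicates 8 and 2. SMURF2 was higher per length in 8 of 8 libraries, by 0.93 ± 0.30 on the log2 scale (exact permutation, adjusted p = 0.00955, n = 8). Of the nuclear corepressors, SKI had 147, 134, 148, 148, 151, 151, 178 and 110 CPM and SKIL had 101, 48.8, 109, 92.7, 116, 163, 88.8 and 36.4 CPM (chromosome 3, 170075473 to 170114637, plus strand). SKI exceeded SKIL per length by 0.98 ± 0.57 in 8 of 8 libraries (exact permutation, adjusted p = 0.00955, n = 8), though by 0.13 in replicate 6, where SKIL was highest.

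**Figure D2:**
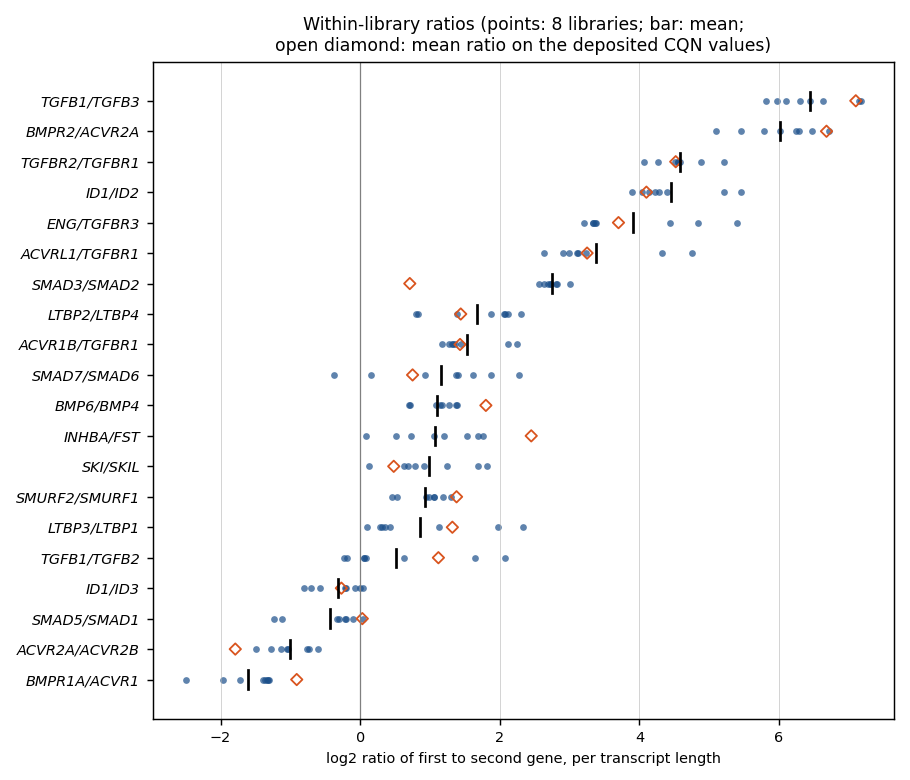
Log2 ratio of the first to the second gene of 20 pairs per transcript length in each of the 8 libraries (points), with the mean (bar) and the mean ratio on the deposited CQN values (open diamond). TGFB1/TGFB2, ID1/ID3, SMAD5/SMAD1 and SMAD7/SMAD6 have libraries on both sides of 0, and SMAD3/SMAD2 is 2.75 per length against 0.71 on CQN values; the pairs with BMP2 and INHBB are left out because those genes lie near 0.

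Both inhibitory SMADs differed several-fold between replicates. SMAD7, which blocks both branches, had 25.5, 27.1, 28.7, 28.9, 68.5, 100, 34.1 and 19.6 CPM in replicates 1 to 8 (chromosome 18, 46446223 to 46477081, minus strand). Replicates 5 and 6 stood above the other 6, whose highest value was 34.2. SMAD6, which acts mainly on the BMP branch, had 11, 16.2, 12.7, 10.7, 16.1, 31.2, 50.7 and 20.3 CPM (chromosome 15, 66994674 to 67074337, plus strand), with replicates 7 and 6 above the other 6. The peaks of these related genes thus fell in different libraries, apart from replicate 6. Per length SMAD7 exceeded SMAD6 in 7 of 8 libraries, by 1.16 ± 0.89 on the log2 scale (exact permutation p = 0.0234, adjusted p = 0.0246, n = 8), and the exception was replicate 7 at -0.37. Without replicates 2 and 8 the ratio was 1.36 (adjusted p = 0.0655), where 6 libraries limit the test.

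Among the targets, ID1 and ID3 were high, ID2 was lower and ID4 was not detected. ID proteins bind bHLH transcription factors and keep them from DNA, and ID1 and ID3 respond directly to BMP SMADs in endothelial cells. ID1 (chromosome 20, 30193086 to 30194317, plus strand) had 87.3, 380, 177, 185, 265, 310, 195 and 181 CPM, ID3 (chromosome 1, 23884421 to 23886285, minus strand) had 137, 371, 199, 206, 249, 314, 282 and 307 CPM and ID2 (chromosome 2, 8822113 to 8824583, plus strand) had 6.99, 11.3, 11.9, 11.5, 18.6, 23, 17.3 and 6.39 CPM. Replicate 1 was lowest for ID1 and ID3, and replicate 8 for ID2. The highest was replicate 2 for ID1 and ID3 and replicate 6 for ID2, whereas on CQN values replicate 6 was highest for all 3. ID1 exceeded ID2 per length by 4.45 ± 0.57 on the log2 scale in 8 of 8 libraries (exact permutation, adjusted p = 0.00955, n = 8). ID1 was below ID3 by -0.32 ± 0.33, in 7 of 8 libraries (exact permutation p = 0.0234, adjusted p = 0.0246, n = 8), but the ratio was -0.27 on CQN values (adjusted p = 0.0658) and 0.01 with all exons as length (adjusted p = 0.961). TGFBI, a matrix protein named for its response to TGF-beta, had 397, 296, 345, 351, 410, 360, 484 and 278 CPM (chromosome 5, 135364584 to 135399507, plus strand).

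Variation beyond that of genes of like abundance was tested over all 11980 detected genes by edgeR, comparing each gene's deviance with that from the dispersion trend. Of the 40 detected members, 6 (15.0%) had a Benjamini-Hochberg adjusted p under 0.05, beside 4.63% of all genes tested. They were SMAD7 (edgeR adjusted p = 3.99e-05), GREM1 (4.21e-05), INHBA (2.96e-04), SMAD6 (3.92e-04), SKIL (0.0157) and ID1 (0.0310). At an unadjusted p under 0.05 there were 11 of the 40 members, beside 13.1% of all genes tested. ID2 missed the threshold (edgeR adjusted p = 0.0693), and NOG, below the filter, was called when no filter was used. With the trend fitted by DESeq2, 20 members and 23.6% of all genes were called.

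**Figure D3:**
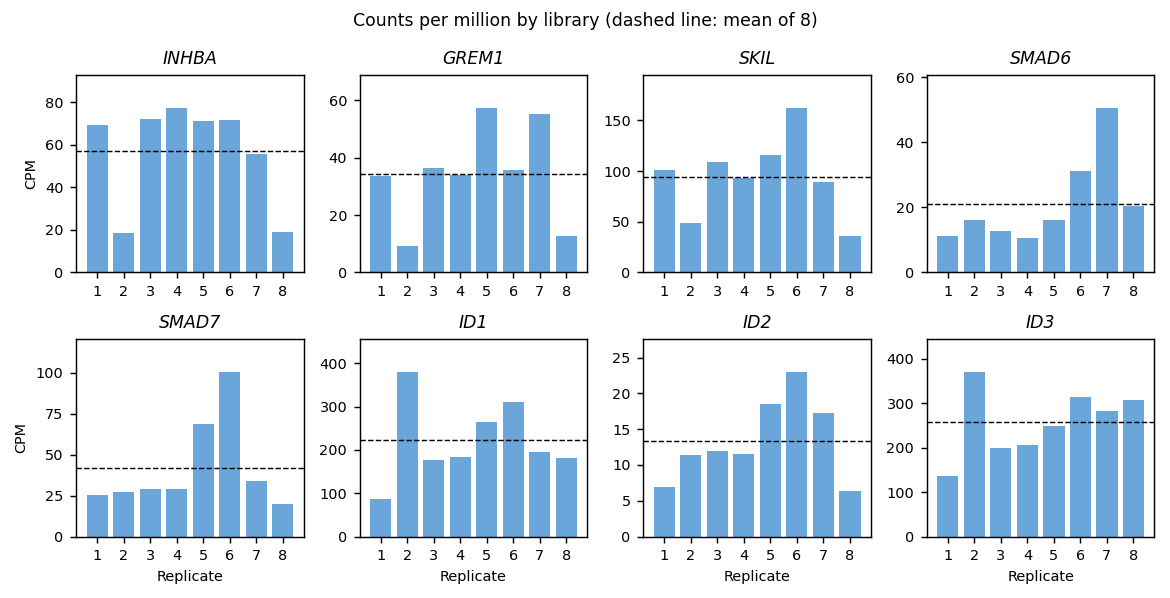
CPM in each of the 8 libraries for the 6 members called for excess variation and for ID2 and ID3; the dashed line is the mean. INHBA is at 18.7 and 18.9 CPM in replicates 2 and 8 against at least 55.9 in the others, while SMAD7 peaks at 101 CPM in replicate 6 and SMAD6 at 50.7 CPM in replicate 7.

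The calls rested on different libraries. Without replicates 2 and 8, a choice made after seeing the data, SMAD6, SMAD7, ID1, ID2 and ID3 were called, and INHBA (edgeR adjusted p = 1.0), GREM1 (0.0905) and SKIL (0.213) were not. Over all genes tested the share called was then 2.71%. When any 1 library was left out, 3.12% to 4.06% of all genes tested were called. Without replicate 6 the calls of SMAD7 (0.136), SKIL (0.135) and ID1 (0.0675) were lost. SMAD6 lost its call without replicate 7 (0.298), SKIL without replicate 8 (0.07), and ID1 without replicate 1 (0.652), 2 (0.122) or 5 (0.0513). After a trend on length and GC had been taken out of every library, INHBA, GREM1, SMAD6, SMAD7 and ID1 kept their calls, FST, ID2 and SMAD2 were added, and SKIL was lost (0.0914). For SMAD2 the length used was that of its canonical transcript of 34626 nt, and its unadjusted edgeR p in the main setting was 0.666. How far its added call rests on that length was not tested. The share over all genes tested was 6.36% in that setting.

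Members are long genes, with a median canonical transcript of 5087 nt when detected, against 3351 nt over all detected genes. In CPM, 23 of the 40 (57.5%) had their 2 lowest values in replicates 2 and 8, beside 29.8% of all detected genes, and 6 (15.0%) had their 2 highest there, beside 33.7%. The 6 were TGFB1, ENG, ACVRL1, BMP4, LTBP3 and LTBP4. The median transcript was 6417 nt for the 23 and 3561.5 nt for the 6. On CQN values 16 members (40.0%) still had their 2 lowest values in replicates 2 and 8, beside 22.2% of all detected genes. They included TGFB2, TGFBI, TGFBR1, BMPR1A, SMURF2, INHBA, FST, GREM1, LTBP1, LTBP2 and SKI. The part that the length slope plays in these values was not tested.

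On CQN values some members were as widely spread as in CPM and others were not. INHBA had 7.19, 5.17, 7.29, 7.41, 7.21, 7.32, 6.81 and 5.16 in replicates 1 to 8, so replicates 2 and 8 stayed near 5.2 and the others at 6.81 or more. GREM1 had 5.23, 3.86, 5.38, 5.30, 6.12, 5.38, 6.24 and 4.41. BMPR2 and SMAD5, in contrast, spanned 7.15 to 7.54 and 6.02 to 6.15 on CQN values, though in CPM their highest value was 2.66 and 2.26 times their lowest. The median SD over libraries was 0.25 for detected members and 0.16 for all detected genes. Of the 41 members with CQN values, 9 (22%) had an SD of at least 0.5, beside 8.67% of all genes with such values. They were NOG (1.15), INHBA (0.96), SMAD7 (0.87), GREM1 (0.79), SMAD6 (0.75), ID2 (0.70), ID1 (0.69), FST (0.66) and ACVR2A (0.51). For ACVR2A, at 1.41 ± 0.285 CPM (SD, n = 8), the SD of log2 CPM was only 0.27, and its highest library was replicate 6 in CPM but replicate 8 on CQN values.

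**Figure D4:**
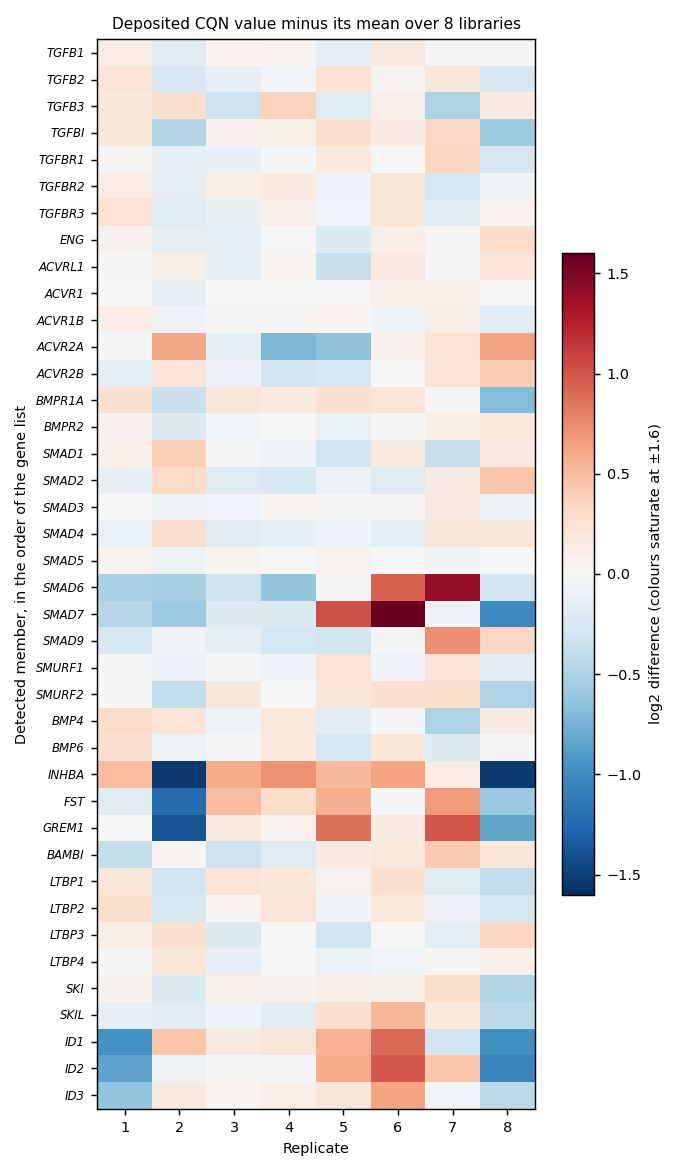
Deposited CQN value (log2) of each detected member in each library minus its mean over the 8 libraries; red is above and blue below the mean. INHBA, FST and GREM1 are lowest in replicates 2 and 8, and SMAD7, SKIL, ID1, ID2 and ID3 are highest in replicate 6.

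On CQN values 9 of the 40 detected members (22.5%) were highest in replicate 6, beside 7.54% of all detected genes. They were TGFB1, TGFBR2, ACVR1, LTBP1, SMAD7, SKIL, ID1, ID2 and ID3. SMAD7 had 5.31, 5.18, 5.53, 5.53, 6.78, 7.35, 5.69 and 4.74 and SKIL had 6.69, 6.65, 6.76, 6.66, 7.09, 7.36, 6.99 and 6.40. Both were lowest in replicate 8 and highest in 6, then 5. ID1 had 7.79, 9.19, 8.89, 8.95, 9.31, 9.66, 8.44 and 7.77, ID2 had 3.81, 4.57, 4.64, 4.63, 5.25, 5.64, 5.10 and 3.58 and ID3 had 8.40, 9.18, 9.06, 9.11, 9.22, 9.66, 8.98 and 8.60. Replicates 1 and 8 were the low libraries and 6 the high one for all 3 ID genes.

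Covariation over the 8 libraries was examined for 10 preset pairs on CQN values, with exact two-sided permutation over 40320 pairings and adjustment over the 10. ID1 and ID3 varied together (Pearson's r = 0.961, exact p = 9.92e-05, adjusted p = 6.2e-04; Spearman's rho = 0.976, exact p = 3.97e-04, adjusted p = 0.00198, n = 8). Without replicates 1 and 8, the farthest from the median of ID1, r was 0.898. SMAD7 and SKIL also varied together (r = 0.956, exact p = 1.24e-04, adjusted p = 6.2e-04; rho = 0.976, exact p = 3.97e-04, adjusted p = 0.00198, n = 8), with r at 0.907 without replicates 5 and 6. In CPM, which is not adjusted for length, ID1 and ID3 had r = 0.873 (exact permutation, adjusted p = 0.0336) and SMAD7 and SKIL had r = 0.749 (adjusted p = 0.125).

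ID2 was less firmly tied. Its r was 0.862 with ID1 (exact p = 0.00796, adjusted p = 0.0159; rho = 0.762, exact p = 0.0368, adjusted p = 0.0735, n = 8) and 0.897 with ID3 (exact p = 0.00434, adjusted p = 0.0109; rho = 0.738, exact p = 0.0458, adjusted p = 0.0764, n = 8). Without replicates 1 and 8 the first was 0.487, so it rested on those libraries, and without replicates 6 and 8 the second was 0.803. Both passed the threshold neither without replicate 1 nor without replicate 8, where the adjusted p was 0.0595 and 0.0734 for ID1 and 0.0595 and 0.0516 for ID3 (exact permutation, n = 7). In CPM the values of r were 0.614 and 0.370.

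For the other pairs described here, no adjusted p for r was under 0.05 over all 8 libraries. ID1 and SMAD7 had r = 0.746 (exact p = 0.0345, adjusted p = 0.0575; rho = 0.667, exact p = 0.0831, adjusted p = 0.119, n = 8). It was 0.689 without replicates 1 and 8 and 0.878 without replicate 2 (exact permutation, adjusted p = 0.0262, n = 7). SMAD6 followed neither ID1 (r = 0.220, adjusted p = 0.624; rho = 0.0952, adjusted p = 0.840, exact permutation, n = 8) nor, past the threshold, SMAD7 (r = 0.538, adjusted p = 0.140; rho = 0.619, adjusted p = 0.144, exact permutation, n = 8). Without replicates 1 and 8 the r of SMAD6 with ID1 was -0.147. The r of SMAD6 with SMAD7 was 0.631 without replicates 6 and 7 and 0.845 without replicate 7 (exact permutation, adjusted p = 0.0308, n = 7). ENG and ID1 had r = -0.595 (adjusted p = 0.140; rho = -0.476, adjusted p = 0.270, exact permutation, n = 8). It was -0.172 without replicates 5 and 8, -0.889 without replicate 6 (exact permutation, adjusted p = 0.00694, n = 7) and 0.0966 in CPM over all 8.

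**Figure D5:**
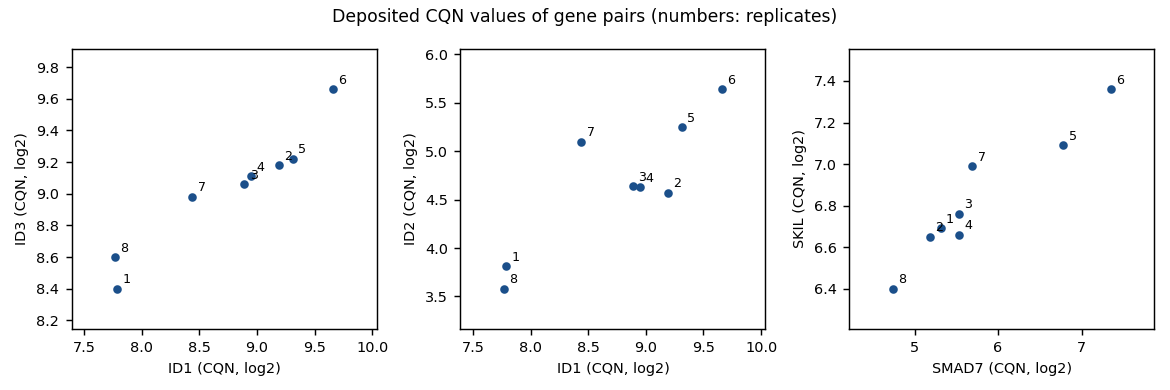
Deposited CQN values (log2) of 3 gene pairs, each point a library labelled by its replicate number. ID1 with ID3 (r = 0.961) and SMAD7 with SKIL (r = 0.956) keep an r of at least 0.898 without their 2 farthest libraries, and ID1 with ID2 drops to 0.487.

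Other genes of the pathway were taken from fixed lists. Over all genes tested, 4.63% were called for excess variation by edgeR, the share to set beside the calls in these lists. Of 25 other ligands 5 were detected, led by GDF15 (24.4 ± 8.98 RPKM, SD, n = 8), AMH (4.68 ± 2.07) and GDF5 (1.63 ± 0.371), and GDF7 was called for excess variation (edgeR adjusted p = 0.0168). Of 6 other receptors and co-receptors only RGMB, a BMP co-receptor, was detected (11.3 ± 1.41 RPKM), and the next, NEO1 and TDGF1, had 0.17 and 0.0382 RPKM. Of 22 other extracellular regulators 13 were detected, led by THBS1 (476 ± 166 RPKM), an activator of latent TGF-beta, BGN (195 ± 71.2) and FSTL1 (119 ± 21.9). FBN1, the fibrillin that anchors the latent complexes, and ITGAV, a subunit of the integrins that release TGF-beta, were called (edgeR adjusted p = 0.00921 and 0.00144). Both were lowest in replicates 2 and 8, at 146 and 110 CPM for FBN1 and 164 and 159 CPM for ITGAV, against at least 201 and 314 CPM in the others.

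All 16 other signal transducers and brakes were detected and 0 were called by edgeR, beside 4.63% of all genes tested. ZFYVE16 and TRIM33 had an unadjusted p under 0.05, beside 13.1% of all genes tested, and 3 of the 16 were called with the DESeq2 trend, beside 23.6%. FKBP1A, which binds type I receptors, led at 456 ± 94.1 RPKM, followed by STRAP (117 ± 9.03) and SNX6 (59.0 ± 5.94) (SD, n = 8). Of 22 commonly cited target genes, 4 of them members, 19 were detected. CTGF (2109 ± 178 RPKM) and CYR61 (773 ± 123 RPKM), which encode secreted matricellular proteins, were among the highest (SD, n = 8). Beside the members SKIL, SMAD6 and SMAD7, the only one called was ATOH8 (edgeR adjusted p = 0.00425), a transcription factor induced by BMPs in endothelium. It had 31.1, 67.8, 25.0, 29.2, 37, 62.2, 80.9 and 86.1 CPM in replicates 1 to 8. It was highest in replicates 8 and 7, where ID1 was not.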

How the data were processed

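Per the labels' protocols, polyadenylated RNA was prepared with a TruSeq RNA kit (v2). Per the submitters' processing notes, CASAVA 1.9, TopHat2 2.0.6, HTSeq and hg19 were used; annotation and strand setting are not given in the sources used here. The authors deposited raw counts per gene (186768 values, all even) and, for 13962 genes, CQN values that their range shows to be log2; 0 other per-sample columns were present.

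Counts were halved and scaled by TMM (edgeR 4.0.16, R 4.3.3). Detection required 1 CPM in all 8 libraries. Table starts were 1 less than in GENCODE 44 on GRCh37 for 5739 genes and equal for 653, so coordinates are printed 1-based. Lengths came from canonical transcripts, and 11650 of the 11980 detected genes had one. Excess variation was tested with edgeR (gof, trended dispersion, intercept-only fit), and DESeq2 1.42.0 gave alternative size factors and a trend. The edgeR test was also run on simulated counts with known changes, and the outcome is not reported here. Those counts were drawn from the fitted trend with no length slope, so they do not cover the slopes of the real libraries. Ratios used log2(CPM + 0.1) less log2 length with exact sign-flip permutation over 256 patterns. Whether both reads of a pair had been counted is not given in the sources used here; without halving, 6 members were called for excess variation, as with it. Counting error is largest for low genes, and limits of 3 read pairs cover counting error only. With 1 group, no conditions were compared.

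All members are accounted for; library values are given for the 3 highest detected members of each role per length, those called, and the genes of pairs and relations (ranges near 0), and, of other lists, the 3 highest and those called are named. Some values that these rules name are not reported here. The members and lists were chosen with earlier results of these data known. Alternatives covered scaling, filters, trend, length, pseudocount, and leaving out libraries.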

Additional observations from a re-analysis of the deposited data

Results flagged for a closer look

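ENG in replicate 8 had 1275 CPM, against 484 to 804 CPM in the other 7 libraries. The gap to the next library was 0.595 of the whole range, above Dixon's critical value for 8 samples. Of 62 sets of values checked, this was the only one so marked; chance alone marks about 1 in 20 such sets. On the deposited CQN values ENG in replicate 8 was 10.49 against 9.98 to 10.30 in the others.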

How the results depend on the processing

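No paired analysis was possible because all libraries form 1 group. The number of members detected was 38 to 41 under every setting tried, and 40 under each omission of a library. Members called for excess variation numbered 6, beside 4.63% of all genes tested. The count was 20 with the DESeq2 trend, beside 23.6% of all genes. It was 3 to 6 when single libraries were left out, beside 3.12% to 4.06% of all genes. The 3 were found without replicate 6, where the share over all genes was 3.63%. All 14 alternatives kept the number of pair ratios past the threshold within 1.5 times of 21. The log2 ratio of SMAD5 to SMAD1 reversed to 0.79 with no length, 0.03 on CQN values and 0.44 with all exons as length; LTBP3 to LTBP1 reversed to -0.22 and ID1 to ID3 to 0.01 with all exons. Of values that had missed the threshold, TGFB1 to TGFB2 changed sign to -0.56 with no length and the correlation of ENG with ID1 to 0.0966 in CPM, and that of ID1 with SMAD6 ranged from -0.067 (without replicate 6) to 0.541 (without replicate 7) when single libraries were left out. Correlations past the threshold numbered 5 of 10. There were 2 in CPM, 2 without replicates 2 and 8, and 2 to 7 when single libraries were left out. The cause of these shifts was not tested. Scalings by DESeq2 or by total counts moved a library by at most 0.0153 and 0.0576 on the log2 scale. Depth limits the members near 0.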
